A study of Homo sapiens with 6 samples.

Results

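The glutathione S-transferases described here are 10 genes of HK-2 cells, namely GSTM1, GSTM3, GSTP1, GSTO1, GSTK1, GSTZ1, GSTA4, MGST1, MGST2 and MGST3. They were taken by gene name from the 38648 listed genes and gene copies, and each name matched 1 entry. Bulk RNA-seq was performed on 6 libraries of HK-2, an immortalized line of human proximal tubular cells. IR+NC-LV (n = 3) carried a negative control lentivirus and IR+PR-LV (n = 3) a lentivirus that overexpresses PRDM16, a transcriptional regulator of the PRDM family. Transduced cells were selected with puromycin before use, and all 6 libraries came from cells given 8 Gy of X-rays and harvested on day 7. Cells without irradiation were not analysed here, so the values describe irradiated cells of a single line and give no effect of irradiation. The labels number the libraries 1 to 3 in each group and do not say whether they came from separate cultures, so that p-values measure the spread between these libraries, which may be technical.

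Glutathione S-transferases join the tripeptide glutathione to reactive, often fat-soluble compounds, and the conjugates are then exported and trimmed to mercapturates. The cytosolic enzymes fall into classes named by Greek letters (alpha, mu, pi, omega, zeta), GSTK1 belongs to a separate mitochondrial and peroxisomal class, and the microsomal enzymes MGST1, MGST2 and MGST3 belong to the membrane-bound MAPEG family. In kidney the proximal tubule is a main site of glutathione turnover. GSTM1 is absent from the genome of many people because of a common deletion, and the genotype of these cells was not analysed here.

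The mu class genes are close copies, so the sequences that tell them apart are shown first. The study's quantitative PCR primers for human GSTM1 were searched in the transcripts of GENCODE release 29. The forward primer (22 bases) crosses the junction of exons 3 and 4 in the coding sequence of GSTM1 (GRCh38, plus strand, last base of exon 3 at chr1:109688737-109688737 and the rest at chr1:109689048-109689068). The reverse primer (21 bases) lies in coding exon 5 (chr1:109689238-109689258). Both are shown with the matching stretch of GSTM3, the mu class gene with nearly all of the counts, with bases that differ from the primer in capitals and the reverse site on the sense strand:
GSTM1 forward primer: tctgccctacttgattgatggg
GSTM3 at the forward site: tctgccctacCtCCtGgatggg
GSTM1 reverse primer: tccacacgaatcttctcctct
GSTM1 at the reverse site: agaggagaagattcgtgtgga
GSTM3 at the reverse site: agaAgaAaagattcgAgtgga
GSTM2 at the reverse site: aAaggagCagattcgCgAAga

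GSTM3 differed from the forward primer at 4 bases and from the reverse primer at 3, and GSTM2 differed from the reverse primer at 5. The forward primer matched GSTM1, GSTM2, GSTM4 and GSTM5 without a mismatch, and the reverse primer matched GSTM1, GSTM4 and GSTM5. Both together matched 5 transcripts of GSTM1, 3 of GSTM4 and 3 of GSTM5, each with a product of 117 bases. Over the coding sequence, GSTM1 was identical to GSTM4 at 92.1% of aligned bases, to GSTM5 at 90.7% and to GSTM2 at 90.0%, but to GSTM3 at 72.4%. Of the 100-base stretches of the GSTM1 transcript, 62.0% occurred in no other gene, against 100% for each of the other 9 listed transferases. Reads from a GSTM1 transcript could therefore be assigned over most of its length, whereas a part could be split with GSTM2, GSTM4 or GSTM5.

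GSTP1 and GSTM1, the highest and the lowest of the 10 genes in these cells, are compared by the 250 bases before their start sites (RefSeq, GRCh38.p14, plus strand; chr11:67583562-67583811 for GSTP1 and chr1:109687567-109687816 for GSTM1). Capitals mark matches to TGACNNNGC, the core letters of the antioxidant response element bound by NRF2, searched on both strands:
GSTP1: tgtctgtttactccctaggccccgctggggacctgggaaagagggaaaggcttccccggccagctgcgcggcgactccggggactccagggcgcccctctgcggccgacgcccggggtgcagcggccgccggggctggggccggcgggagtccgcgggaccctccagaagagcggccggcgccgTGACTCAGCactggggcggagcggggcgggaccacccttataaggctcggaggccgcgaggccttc
GSTM1: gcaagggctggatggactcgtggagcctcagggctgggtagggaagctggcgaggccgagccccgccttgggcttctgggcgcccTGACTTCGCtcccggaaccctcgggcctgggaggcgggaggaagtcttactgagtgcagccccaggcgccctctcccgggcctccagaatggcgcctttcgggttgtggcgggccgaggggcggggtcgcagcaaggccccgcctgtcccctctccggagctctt

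The match began 66 bases before the start of GSTP1 and 165 bases before that of GSTM1, so the gene with the most TPM and the gene without a count both held these letters. Of the 9 listed transferases with a window in the table (all but MGST2), 4 held a match, namely GSTP1, GSTO1 with 2 matches, GSTA4 and GSTM1. Of all 35116 windows of this length, 10.9% held one. The windows also differed in CpG pairs, against a median of 11 over all windows. GSTP1 and GSTZ1 each had 28, GSTM1 had 19, GSTO1 had 14 and GSTM3 had 1.

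The libraries held between 13407074 and 28540041 counts. PRDM16 had 2, 0 and 1 counts in replicates 1 to 3 of IR+NC-LV and 14, 10 and 8 counts in those of IR+PR-LV. The markers of the labelled cell type were mixed, since 7 of 16 proximal tubule genes reached a mean level of 1 TPM (counts per exon base, made to add up to an equal sum for each library), among them KRT8, KRT18, PAX8 and GGT1, while the apical receptors LRP2 and CUBN, the transporters SLC22A6 and SLC22A8 and the regulator HNF4A lay below 0.5 TPM. The summed level of the 16 proximal tubule genes was 1684 to 1736 TPM in IR+NC-LV and 1639 to 2008 TPM in IR+PR-LV. Most of it came from the keratins KRT8 at a mean of 834 TPM and KRT18 at a mean of 632 TPM. Of 16 markers of other kidney and blood cells, 2 reached 1 TPM (CD68 and COL1A1), and the endothelial, leukocyte and tubule segment markers CDH5, PTPRC, UMOD and AQP2 lay at or near 0. The summed level of these markers was lower in IR+PR-LV (169 to 181 TPM) than in IR+NC-LV (198 to 211 TPM), nearly all of it CD68 at a mean of 177 TPM, whose log2 fold change was -0.22 (unadjusted p = 0.0256, adjusted p = 0.405 from edgeR with Benjamini-Hochberg adjustment). NPHS1, a podocyte gene, measured 0.986 to 1.22 TPM in IR+NC-LV and 0.346 to 0.432 TPM in IR+PR-LV, and its log2 fold change was -1.43 (adjusted p = 0.0755 from the same edgeR test). The part of these markers in the results was not tested. In bulk RNA, fewer cells of a type and less RNA per cell cannot be told apart.

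HK-2 cells made GSTP1 RNA above all other listed transferases. The 9 genes with counts together held 1913 ± 128 TPM (SD, n = 6), of which GSTP1 took 55.7% ± 2.65 and GSTP1 with GSTO1 75.4% ± 1.47. The mean level was 1066 ± 97.0 TPM for GSTP1, 376 ± 27.9 TPM for GSTO1, 184 ± 23.3 TPM for MGST3, 109 ± 9.37 TPM for GSTK1 and 105 ± 9.45 TPM for MGST1 (SD, n = 6 each). Lower in the order stood GSTM3 at 47.8 ± 3.02 TPM, MGST2 at 11.1 ± 1.46 TPM, GSTA4 at 6.78 ± 0.700 TPM and GSTZ1 at 6.43 ± 0.925 TPM, with GSTM1 last at 0. Of 28831 entries with a count in some library, GSTP1 ranked 113th, GSTO1 408th and GSTM3 4012th by mean TPM. The 3 membrane-bound enzymes together held 15.7% ± 1.39 of the total. All these shares rest on the deposited lengths and depend on them, as given below.

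Neighbours in this order were compared within each library. GSTP1 was 2.85 ± 0.314 times as high as GSTO1, GSTO1 2.05 ± 0.142 times as high as MGST3 and MGST3 1.69 ± 0.178 times as high as GSTK1 (mean ± SD of the ratio over 6 libraries), each in 6 of 6 libraries. GSTK1 and MGST1 did not differ beyond their spread (ratio 1.05 ± 0.135, GSTK1 above in 4 of 6 libraries). The same held for GSTA4 and GSTZ1 (ratio 1.07 ± 0.155, GSTA4 above in 3 of 6 libraries). The largest step between neighbours with counts on this scale was that from GSTM3 to MGST2, with a ratio of 4.37 ± 0.581. This step, the closeness of GSTK1 and MGST1 and that of GSTA4 and GSTZ1 all depended on the length, as given next.

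A level per length depends on the length used. The deposited TPM divides by all exon bases listed for a gene, 3258 for MGST1, whereas its principal transcript in GENCODE holds 979. With the principal transcript as the length, a calculation chosen after the values were seen, MGST1 stood at 293 ± 26.3 TPM and moved from rank 5 to rank 3. GSTK1 stood at 105 ± 9.29 TPM and moved from rank 4 to rank 5, so that GSTK1 and MGST1 were no longer close. GSTP1 stood at 689 ± 64.4 TPM and kept rank 1, as GSTO1 kept rank 2 at 369 ± 27.9 TPM (SD, n = 6 each). GSTM3 stood at 40.8 TPM and MGST2 at 26.9 TPM, so that the step between them was 1.53 ± 0.204 and the largest step became that from GSTK1 to GSTM3 (2.59 ± 0.274, mean ± SD of the ratio over 6 libraries). GSTZ1 stood at 13.4 ± 1.92 TPM and GSTA4 at 6.08 ± 0.626 TPM, and GSTZ1 was then the higher in 6 of 6 libraries (ratio 2.22 ± 0.324). Of the 10 genes, 5 kept their rank. The shares of the summed TPM given above were not recalculated with these lengths. With GSTP1 lower and MGST1 higher, GSTP1 would take a smaller share and the membrane-bound enzymes a larger one.

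GSTM1 (chromosome 1, 109687817 to 109693745, plus strand, hg38) had no count in any library. With 115430886 counts in all, 0 counts allow up to 0.026 CPM (counts relative to the library total) or 0.0696 TPM, taken as 3 counts over the 6 libraries, and this limit covers counting error only. Any group difference of GSTM1 RNA lay below what this depth could detect. The counts of the mu class cluster fell almost wholly on GSTM3. GSTM2 and GSTM5 also had no count, GSTM4 had 1, 1 and 1 counts in IR+NC-LV and 1, 2 and 2 in IR+PR-LV, and GSTM3 had 7038 counts in all. GSTM3 therefore held 99.9% of the 7046 mu class counts (exact Clopper-Pearson 95% interval 99.78% to 99.95%). Against the limit of 3 counts for GSTM1, GSTM3 was at least 417-fold higher and GSTP1 at least 6983-fold higher per length, when the principal transcripts gave the length and 62.0% of GSTM1, its unique share, was taken as countable. The deposited lengths, with all of GSTM1 countable, gave 693 and 15322 in place of these values.

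The alpha class showed the same kind of row on chromosome 6. GSTA1, GSTA2, GSTA3 and GSTA5 had no count in any library, and GSTA4 had 345. GSTA1 and GSTA2 are abundant transferases of liver and of the kidney's proximal tubule. In HK-2 cells each of these clusters was thus read from a single gene apart from the 8 counts of GSTM4.

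IR+PR-LV was set against IR+NC-LV to ask whether the PRDM16 lentivirus was accompanied by other transferase levels. PRDM16 RNA was low in both groups, at 0 to 0.0446 TPM in IR+NC-LV and 0.131 to 0.308 TPM in IR+PR-LV. How far PRDM16 activity was raised in these libraries was not tested. None of the 9 transferases with counts passed the threshold (edgeR's quasi-likelihood test, Benjamini-Hochberg adjusted p under 0.05), and DESeq2 also called 0. Over all 15340 genes and gene copies tested, 0.0652% passed. At an unadjusted p under 0.05 there were 0 of the 9, against 10.5% of all tested, and the groups did not overlap for 0 of the 9, against 17.0% of all tested. The log2 fold changes (IR+PR-LV over IR+NC-LV) were positive for 2 and negative for 7, from -0.24 for GSTZ1 to 0.13 for GSTM3, with a median of -0.06 against 0.0044 over all tested. Values per library below are TPM, and fold changes come from the test on counts.

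GSTP1 (chromosome 11, 67583812 to 67586653, plus strand) is the pi class enzyme, which also binds the stress kinase JNK. It measured 1137, 1158 and 986 TPM in IR+NC-LV and 1152, 1033 and 929 TPM in IR+PR-LV. Replicate 3 was the lowest library of each group, and the groups overlapped. Its log2 fold change was -0.04 (standard error 0.11, 95% interval -0.29 to 0.20, adjusted p = 0.916 from edgeR with Benjamini-Hochberg adjustment). On the linear scale the interval ran from -18.0% to 15.2%, so that larger changes of GSTP1 RNA lay outside it.

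GSTO1 (chromosome 10, 104254173 to 104267455, plus strand) is the omega class enzyme, which removes glutathione from proteins and reduces dehydroascorbate. It measured 402, 404 and 344 TPM in IR+NC-LV and 344, 367 and 394 TPM in IR+PR-LV, with IR+NC-LV replicate 3 and IR+PR-LV replicate 1 alike at the bottom. The groups overlapped, and the log2 fold change was -0.03 (standard error 0.10, 95% interval -0.24 to 0.19, adjusted p = 0.945 from the same edgeR test). GSTK1 (chromosome 7, 143263441 to 143269115, plus strand), the mitochondrial and peroxisomal enzyme, measured 125, 114 and 100.1 TPM in IR+NC-LV and 111, 104 and 102 TPM in IR+PR-LV. All 3 IR+PR-LV libraries lay within the range of IR+NC-LV, with a log2 fold change of -0.07 (95% interval -0.31 to 0.18).

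GSTM3 (chromosome 1, 109733937 to 109741038, minus strand), the mu class enzyme with nearly all of the counts, had the largest positive log2 fold change of the 9. It measured 46.2, 49.6 and 42.6 TPM in IR+NC-LV and 47.8, 49.5 and 50.9 TPM in IR+PR-LV. IR+NC-LV replicates 1 and 3 lay below all IR+PR-LV libraries, while replicate 2 lay within their range. The log2 fold change was 0.13 (standard error 0.09, 95% interval -0.07 to 0.33, adjusted p = 0.649 from the same edgeR test). Without IR+NC-LV replicate 3 it was 0.049, and without IR+NC-LV replicate 2 it was 0.21 (unadjusted p = 0.0463, adjusted p = 0.470 from edgeR). On the linear scale the interval with all libraries ran from -4.65% to 26.1%.

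GSTA4 (chromosome 6, 52977952 to 52995332, minus strand) conjugates the lipid peroxidation product hydroxynonenal. It measured 7.05, 7.00 and 7.02 TPM in IR+NC-LV and 5.35, 7.17 and 7.07 TPM in IR+PR-LV. IR+PR-LV replicate 1, with 40 counts, was the low library, and the other 5 lay within 7.00 to 7.17 TPM. The log2 fold change was -0.06 (standard error 0.18, 95% interval -0.46 to 0.34), the widest interval of the 9, and without IR+PR-LV replicate 1 it was 0.056.

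GSTZ1 (chromosome 14, 77321002 to 77331597, plus strand), the zeta class enzyme, is the maleylacetoacetate isomerase of tyrosine breakdown. It measured 5.99, 7.28 and 7.90 TPM in IR+NC-LV and 5.74, 6.01 and 5.68 TPM in IR+PR-LV. The IR+PR-LV libraries lay close together, and IR+NC-LV replicate 1 lay among them while replicates 2 and 3 lay above. The log2 fold change was -0.24 (standard error 0.14, 95% interval -0.55 to 0.08, adjusted p = 0.592 from the same edgeR test). It was the largest difference in size among the 9 and stayed negative in each of the 6 fits that left out 1 library (-0.33 to -0.18).

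MGST1 (chromosome 12, 16347115 to 16377192, plus strand) sits in the endoplasmic reticulum and the outer mitochondrial membrane and also reduces lipid hydroperoxides. It measured 104, 106 and 94.9 TPM in IR+NC-LV and 93.9, 117 and 114 TPM in IR+PR-LV. IR+PR-LV replicates 2 and 3 were the highest libraries and IR+PR-LV replicate 1 the lowest, so the groups overlapped. The log2 fold change was 0.13 (standard error 0.10, 95% interval -0.10 to 0.36, adjusted p = 0.710 from the same edgeR test). It was 0.22 without IR+PR-LV replicate 1 (unadjusted p = 0.0369, adjusted p = 0.268 from edgeR) and 0.049 without IR+NC-LV replicate 3.

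MGST2 (chromosome 4, 139665725 to 139754608, plus strand) can join glutathione to leukotriene A4. It measured 12.5, 13.3 and 10.2 TPM in IR+NC-LV and 9.64, 10.3 and 10.5 TPM in IR+PR-LV. IR+NC-LV replicates 1 and 2 lay above all IR+PR-LV libraries, and replicate 3 lay among them. The log2 fold change was -0.21 (standard error 0.14, 95% interval -0.52 to 0.10, adjusted p = 0.628 from the same edgeR test), and it was -0.34 without IR+NC-LV replicate 3 (unadjusted p = 0.0124, adjusted p = 0.418 from edgeR) and -0.11 without IR+NC-LV replicate 2. Of the exon bases of MGST2, 6.79% overlap MAML3 on the other strand, so that its count is uncertain to that extent if the counting ignored the strand.

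MGST3 (chromosome 1, 165631234 to 165656136, plus strand), a glutathione peroxidase and transferase of the same family, was the most variable of the 9. It measured 209, 205 and 159 TPM in IR+NC-LV and 155, 194 and 184 TPM in IR+PR-LV, with 1 low library in each group. The log2 fold change was -0.07 (standard error 0.14, 95% interval -0.38 to 0.24, adjusted p = 0.882 from the same edgeR test). The SD of log2 CPM within groups was 0.238 for MGST3 and 0.126 for GSTM3, against a median of 0.136 over all tested. IR+NC-LV replicate 3, the shallowest library, had the lowest CPM of its group for 8 of the 9 transferases, GSTZ1 being the exception, and the part of depth in this was not tested.

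**Figure D1:**
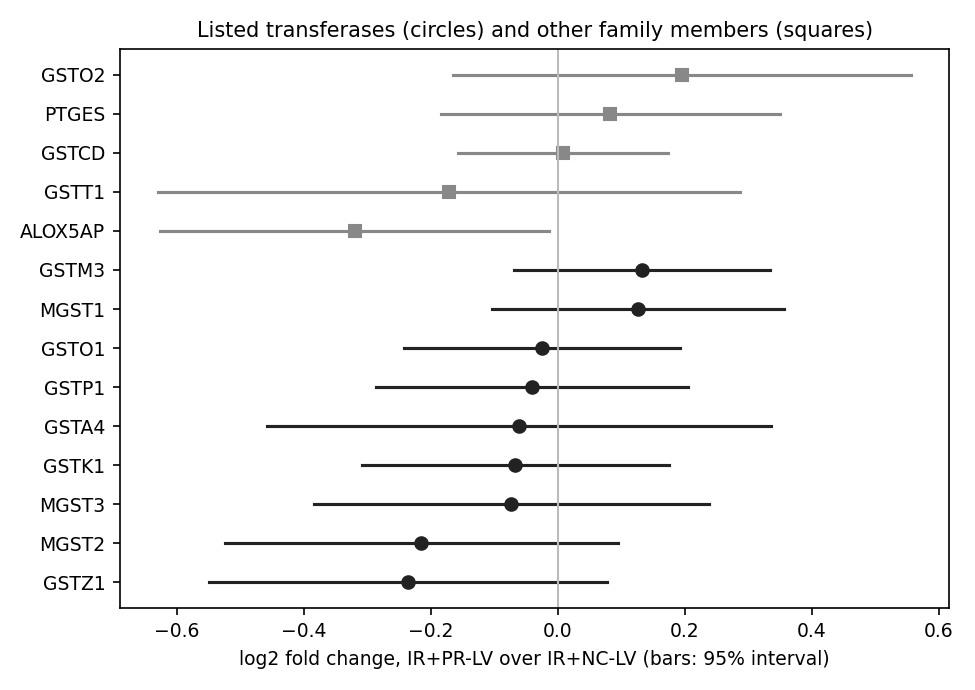
Log2 fold change (IR+PR-LV over IR+NC-LV, 3 libraries each) with its 95% interval from edgeR for the 9 tested listed transferases (circles) and 5 other members of both families (squares). The intervals of the 9 listed genes include 0, and that of ALOX5AP runs from -0.63 to -0.01.

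Other members of the transferase families made up 20 entries under 17 gene names, of which 5 were tested, 10 had no count and 5 had counts too low to test. None of the 5 passed the threshold. PTGES, the microsomal prostaglandin E synthase, stood at 154 TPM and GSTCD, which carries a transferase domain, at 42.2 TPM, with log2 fold changes of 0.08 and 0.01. For GSTT1, listed on an alternate scaffold at 10.4 TPM, the log2 fold change was -0.17, and for GSTO2 at 1.38 TPM it was 0.20. ALOX5AP, the helper protein of leukotriene synthesis, measured 16.2, 17.0 and 17.6 TPM in IR+NC-LV and 11.7, 13.5 and 14.4 TPM in IR+PR-LV. The groups did not overlap, and the log2 fold change of ALOX5AP was -0.32 (standard error 0.14, unadjusted p = 0.0424, adjusted p = 0.453 from edgeR with Benjamini-Hochberg adjustment). GSTT2 and GSTT2B, theta class genes with several listed copies between which reads can be split, held 7 counts each.

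Genes that make, feed and recycle glutathione were measured beside the transferases. The median log2 fold change of the 9 genes was -0.06, and 0 passed the threshold. At an unadjusted p under 0.05 there were 3, against 10.5% of all tested, and all 3 were lower in IR+PR-LV. These were CTH, which makes cysteine from cystathionine, and SLC7A11 and SLC3A2, the subunits of the cystine importer. CTH measured 18.7, 16.5 and 25.9 TPM in IR+NC-LV and 10.3, 11.2 and 12.6 TPM in IR+PR-LV. The groups did not overlap, and the log2 fold change of CTH was -0.79 with a standard error of 0.14 (edgeR with Benjamini-Hochberg adjustment, adjusted p = 0.0933). CTH passed the threshold with DESeq2 (adjusted p = 9.98e-05) and when edgeR was run without the filter on low counts (adjusted p = 9.53e-06).

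SLC7A11 measured 19.8, 17.9 and 38.2 TPM in IR+NC-LV and 14.1, 12.7 and 17.5 TPM in IR+PR-LV. IR+NC-LV replicate 3 stood far above the other libraries, and the log2 fold change of -0.72 (adjusted p = 0.370 from edgeR) was -0.35 without it. SLC3A2 measured 188, 166 and 265 TPM in IR+NC-LV and 151, 126 and 128 TPM in IR+PR-LV, again with IR+NC-LV replicate 3 highest. Its log2 fold change was -0.56 (adjusted p = 0.216 from edgeR) and -0.39 without that library. SLC3A2 passed the threshold with DESeq2 (adjusted p = 0.00275), and without the filter on low counts edgeR called both SLC3A2 (adjusted p = 4.93e-05) and SLC7A11 (adjusted p = 0.000131). Neither passed in any other alternative, as with the replicate block in edgeR (adjusted p = 0.223 for SLC3A2 and 0.121 for SLC7A11). SLC7A11 also did not pass with DESeq2 (adjusted p = 0.504). The synthesis and reduction enzymes GSS and GSR stood at 96.4 and 68.4 TPM with log2 fold changes of -0.04 and 0.12.

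**Figure D2:**
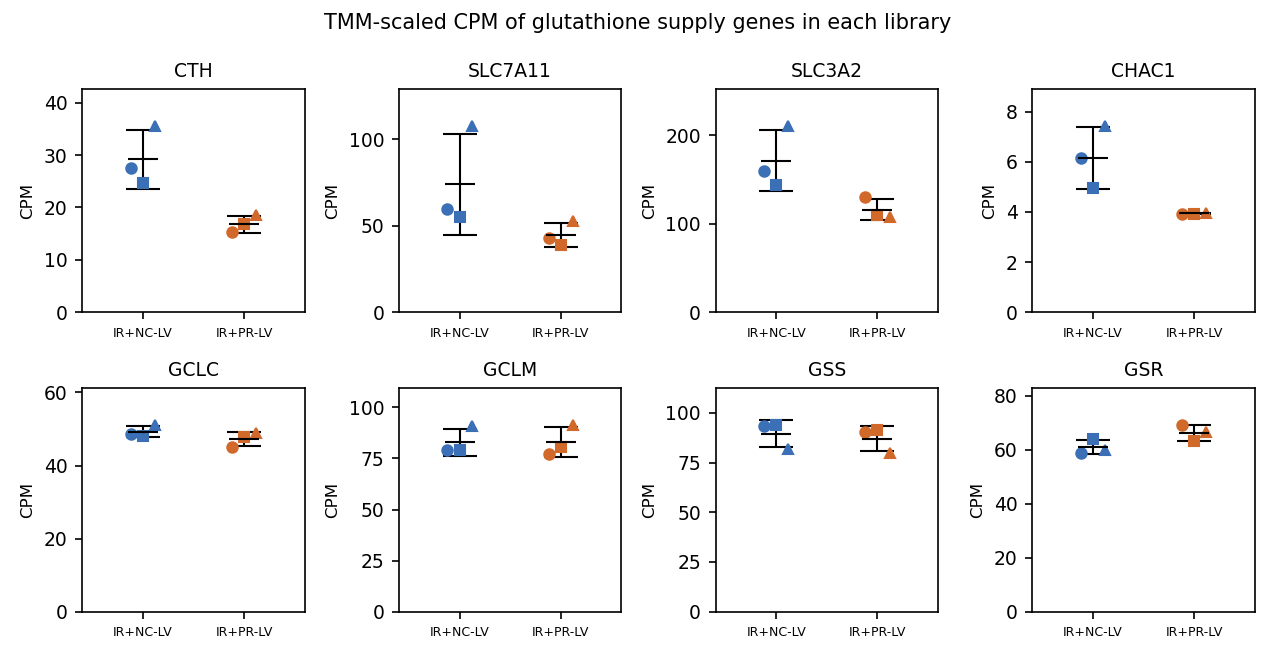
TMM-scaled CPM of 8 genes of glutathione supply, synthesis, breakdown and reduction in each library (axes start at 0), with circles, squares and triangles for replicates 1, 2 and 3 and the mean with its SD in black (n = 3 per group). CTH, SLC7A11, SLC3A2 and CHAC1 show no overlap between groups, and IR+NC-LV replicate 3 is the highest library for each of these 4, while GCLC, GCLM, GSS and GSR overlap. The groups did not overlap for 17.0% of all tested genes and copies, and the 8 genes shown were chosen with their values known.

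In the breakdown of glutathione and its conjugates, 0 of 8 tested genes passed the threshold, and the unadjusted p was under 0.05 for 2, against 10.5% of all tested. CHAC1, which cleaves glutathione inside the cell, measured 3.28, 2.59 and 4.25 TPM in IR+NC-LV and 2.08, 2.06 and 2.13 TPM in IR+PR-LV, with a log2 fold change of -0.64 (adjusted p = 0.276 from edgeR). GGT7 had a log2 fold change of -0.26 (adjusted p = 0.397 from edgeR). The most abundant were GGCT at 173 TPM, LAP3 at 89.6 TPM and GGT1, the surface enzyme that starts the trimming of conjugates, at 69.9 TPM.

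Of 9 tested genes or copies of mercapturate formation and export, 0 passed. The conjugate exporters ABCC4 and ABCC3 stood at 29.3 and 18.6 TPM. NAT8, ACY1 and ACY3, which finish or reverse mercapturate formation, held 5, 4 and 1 counts. Beside GSTZ1 in tyrosine breakdown, FAH stood at 51.4 TPM, FAHD1 at 18.1 TPM and HGD at 2.77 TPM, with 0 of 3 past the threshold. Beside GSTO1, thioredoxin (TXN) at 2062 TPM, its reductase TXNRD1 at 966 TPM and GLRX3 at 151 TPM were the most abundant of 6 genes, of which 0 passed.

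The genes whose log2 CPM followed that of 2 transferases most closely over the 6 libraries were taken from 13967 tested rows with a mean of at least 1 CPM. For GSTP1 these were PPP4C (Pearson r = 0.994), RCCD1, SDHA, ROBO3 and AMDHD2 (r = 0.992), and 303 rows exceeded 0.9. For GSTZ1 these were HDX (r = 0.985), DDB2, SRBD1, AKAP9 and a listed copy of RUFY1 (r = 0.963), and 49 rows exceeded 0.9. The points are the same 6 libraries and share depth and scaling, so these values are a description.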

How the data were processed

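Poly(A) RNA of 6 libraries of irradiated HK-2 cells was sequenced as paired reads, and the authors removed reads with adapters or of low quality. The authors deposited counts per gene, without normalization, beside TPM and FPKM values derived from them; FPKM was not used. The submitters' processing notes name CASAVA, featureCounts 2.0.1, DESeq2 1.16.1 and hg38; the aligner, annotation and strand setting are not given in the sources used here. Counts were compared with edgeR 4.0.16 in R 4.3.3 (filterByExpr at its defaults, minimum count 10, minimum total 15, TMM factors 0.981 to 1.04, quasi-likelihood test without covariates, Benjamini-Hochberg adjustment over 15340 rows, threshold 0.05). The biological coefficient of variation was 0.106, and the totals lay between 13407074 and 28540041 counts. CPM values are TMM-scaled and intervals are at 95%. The limit for GSTM1 and the exact intervals on summed counts cover only counting error. The intervals of log2 fold changes come from the quasi-likelihood fit and include the spread between libraries. The test was tried on simulated data first. Levels were compared on the deposited TPM.

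The members and gene lists were chosen with earlier results of these data known. Named genes are PRDM16, the 10 transferases, list genes with an unadjusted p under 0.05 and the 3 most abundant genes of each list, and the 5 rows most like GSTP1 and GSTZ1; some named by this rule are not reported here, and other list genes and markers were named after their values were seen. Alternatives were DESeq2 1.42.0, upper-quartile or RLE normalization, other filters, summed copies, a replicate block, each library left out, and, added after seeing the data, the principal transcript's length and the unique share of GSTM1. Sequences came from GENCODE release 29 (206694 transcripts), RefSeq and the study's primer list.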

Additional observations from a re-analysis of the deposited data

How the results depend on the processing

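No transferase passed the threshold under any alternative run (edgeR or DESeq2, lowest adjusted p 0.268), and none changed sign in the 7 alternatives that kept all libraries. Leaving out 1 library changed the sign of 5 of 9 log2 fold changes, which ranged from -0.14 to 0.04 for GSTP1, -0.13 to 0.038 for GSTO1, -0.17 to 0.017 for GSTK1, -0.15 to 0.056 for GSTA4 and -0.22 to 0.015 for MGST3. Without IR+NC-LV replicate 1, GSTO1 and GSTK1 were at 0.017 and MGST3 at 0.0026; without IR+NC-LV replicate 2, GSTO1 was at 0.038, GSTP1 at 0.026 and MGST3 at 0.0054; without IR+PR-LV replicate 1, GSTA4 was at 0.056, GSTO1 at 0.020 and MGST3 at 0.015; without IR+PR-LV replicate 3, GSTP1 was at 0.040. Genes past the threshold numbered 10 (3 higher, 7 lower), against 1 at an adjusted p under 0.01, 58 under 0.1, 168 with DESeq2, 342 without the filter, and 1 to 28 with 1 library left out (1 when IR+NC-LV replicate 1 was left out and likewise 1 when IR+PR-LV replicate 3 was, 28 without IR+NC-LV replicate 2, 16 without IR+NC-LV replicate 3); the cause was not tested. Libraries of the same number shared little of their deviations from the group means (correlations -0.0088, 0.051 and 0.071), which cannot exclude a pairing. With the replicate block 3 genes and 0 transferases passed. By CPM, which ignores length, 4 of 10 transferases kept their rank, by the principal transcript's length 5, within each group 8 and within 1 library 8 or more. Within groups and libraries the swaps were GSTK1 with MGST1 or GSTA4 with GSTZ1. The intervals of the 9 genes limit what 3 libraries a group could show, and GSTM1 could not be compared.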

Other observations

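The share of each gene in the summed TPM of the transferases had a larger SD among the IR+PR-LV libraries than among the IR+NC-LV libraries for 7 of 9 genes, and a smaller one for GSTK1 (0.147 against 0.281 percentage points) and GSTZ1 (0.0112 against 0.0801). GSTP1 took 55.5%, 56.1% and 56.3% of the summed TPM of the 10 genes in IR+NC-LV, while in IR+PR-LV it took 59.9%, 54.7% and 51.7%. GSTO1 took 19.6% ± 0.0426 in IR+NC-LV, while in IR+PR-LV it took 19.7% ± 2.03 (SD, n = 3 each). The summed TPM itself was 2049, 2065 and 1752 in the libraries of IR+NC-LV and 1925, 1887 and 1798 in those of IR+PR-LV, so that IR+NC-LV replicate 3, with the lowest sum, had the same make-up as the other libraries of its group to within 1 percentage point for GSTP1. Shares of the same sum are tied together, so the genes are not separate observations here. In TPM itself the SD was larger in IR+PR-LV only for GSTP1, GSTA4 and MGST1, and smaller for the other genes with counts. The difference in spread of the shares was seen after the values were known, was not set against other genes and was not tested.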
